A study of Homo sapiens with 12 samples.

Results

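The 3 miRNA names described here are hsa-miR-552-3p and hsa-miR-552-5p, the 2 arms of the MIR552 hairpin, and hsa-miR-3972. They were taken by name from the 2656 miRNA names counted in 12 small RNA libraries of AC16, a human line made by fusing adult heart muscle cells with transformed fibroblasts. The names had been picked because miR-552-3p and miR-3972 led the exosome libraries, so their levels and their differences between exosomes and cells are given as description, without a test. The libraries fell into 4 groups of 3: exosomes Ang, exosomes Con, cells Ang and cells Con. The headers of the Ang files read AngII, and the sources used here give neither dose nor time. They do not say either whether replicates were separate cultures, so each p-value speaks only of the spread among these libraries, which may be technical. Exosome RNA and cell RNA came from different kits (exoRNeasy Maxi and miRNeasy Micro), so compartment and kit cannot be told apart in any difference between them. The study looked for exosomal miRNAs that change in hypertrophic (enlarged) heart muscle cells.

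A miRNA is cut from one limb of an RNA hairpin, first by Drosha in the nucleus and then by Dicer in the cytoplasm. The resulting duplex has a 5p and a 3p strand. Usually the strand that an Argonaute protein retains accumulates and its partner is lost. The retained strand finds its messenger RNAs mainly through its seed, bases 2 to 8. Exosomes are small vesicles that cells release when endosomal compartments fuse with the plasma membrane, and they carry RNA with them. miR-552 has been studied mostly in tumours of the gut and liver. miR-3972 lies in the gene of a peptidylarginine deiminase, an enzyme of skin and hair that turns arginine into citrulline.

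The mature sequences, from RefSeq on build GRCh38.p14, are shown because the results turn on which strand was counted. Capitals mark the seed. Among the 2370 human mature names with a sequence here, miR-1202 is the single other one that shared a seed with any of the 3:
hsa-miR-552-3p: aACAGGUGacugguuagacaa
hsa-miR-552-5p: gUUUAACCuuuugccuguugg
hsa-miR-3972: cUGCCAGCcccguuccagggca
hsa-miR-1202: gUGCCAGCugcagugggggag

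The hairpins are shown so that the position of each counted strand can be seen, with the mature strands in capitals:
MIR552: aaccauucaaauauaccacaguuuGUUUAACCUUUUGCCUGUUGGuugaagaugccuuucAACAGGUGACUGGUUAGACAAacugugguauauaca
MIR3972: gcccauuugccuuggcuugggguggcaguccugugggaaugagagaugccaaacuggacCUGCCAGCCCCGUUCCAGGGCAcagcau

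Both hairpins are on chromosome 1, 17.4 Mb apart. MIR552 covers chr1:34669599-34669694 on the minus strand and overlaps no gene in GENCODE release 29. MIR3972 covers chr1:17277889-17277975 on the plus strand, in an intron of PADI3 on the same strand. It lies 30220 bases from PADI4, a related deiminase of white blood cells. The mature strands lie at chr1:34669614-34669634 for miR-552-3p, chr1:34669650-34669670 for miR-552-5p and chr1:17277948-17277969 for miR-3972. The annotation of MIR3972 has a single mature strand, on the 3′ limb, so no partner could be counted. Folded with RNAfold, the minimum free energy was -48.9 kcal/mol for the 96 bases of MIR552 and -41.1 kcal/mol for the 87 bases of MIR3972. Per base these were -0.51 and -0.47, close to the median of -0.45 over 1560 annotated human hairpins.

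The 3 sequences had little in common. GC content was 42.9% in each miR-552 arm and 72.7% in miR-3972, against a median of 52.2% over 2370 human mature names. A GC content at or above that of miR-3972 was found in 7.47% of those names. Any pair of the 3 differed by 14 or 15 single-base edits. The closest other annotated names were 7 edits away: miR-4735-3p and miR-6715b-5p from miR-552-3p, miR-487b-5p from miR-552-5p, and miR-4730 from miR-3972. None of the names with a sequence was thus near-identical to any of them. Of the 2656 names counted, 2367 had a sequence, and the others were not compared. No stretch of 18 bases from any of the 3 matched a GENCODE transcript on either strand, other than their own hairpins, among 206694 transcripts searched. Genomic sequence outside these transcripts and sequence of other organisms were not searched.

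Short motifs that have been described in the loading of miRNAs into exosomes were searched as exact letters in the mature strand. None of the 5 motifs was found in any of the 3 names. The motif GGAG occurs in 15.7% of human mature names, and GAGG, which can overlap it, also in 15.7%. CCCU occurs in 11.9% and GGCU in 12.6%. The longer CGGGAG, which contains GGAG, occurs in 0.25%. This says only that these letters are not in these strands.

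Totals ran from 697049 to 1022550 unique molecular identifiers (UMIs, tags that count each captured molecule once) in exosomes Ang, from 888518 to 1029883 in exosomes Con, from 413513 to 512840 in cells Ang and from 424041 to 528844 in cells Con. Levels are given as CPM, each count scaled to the UMI total of its library. A UMI stands for a molecule whatever its length, but capture may differ between sequences, and this was not corrected. A floor of 3 counts came to 2.91 to 4.30 CPM in exosome libraries and 5.67 to 7.25 CPM in cell libraries, and covers counting error only. Replicate 1 of exosomes Con stood apart, since the chi-square of its counts per degree of freedom was 6.57 and 10.6 against replicates 2 and 3, which had 1.91 between them. Replicate 2 of cells Ang did so less, with 4.0 and 4.4 against 1.99, and replicate 2 of exosomes Ang less again, with 3.29 and 2.76 against 1.94. Muscle miRNAs, the markers fixed for the labelled cell type, were scarce: the 7 names summed to 57.4 to 71.4 CPM in exosomes Ang, 73.8 to 90.6 in exosomes Con, 285 to 326 in cells Ang and 344 to 376 in cells Con. miR-1-3p, a main miRNA of heart muscle, had 4.08 to 7.25 CPM in cells Ang and 7.07 to 17.0 in cells Con.

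hsa-miR-552-3p was among the 2 highest names in every exosome library and far down the list in every cell library. In exosomes Ang it had 145242, 155654 and 150630 CPM, against 89005, 88669 and 84622 CPM in exosomes Con. In cells Ang it had 101.9, 96.7 and 78.0 CPM (50, 40 and 40 counts), against 56.7, 62.0 and 73.1 CPM (30, 32 and 31 counts) in cells Con. It ranked first or second in exosomes, between 772 and 859 in cells Ang and between 865 and 973 in cells Con. The 4 groups did not overlap, in the order exosomes Ang, exosomes Con, cells Ang, cells Con.

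hsa-miR-3972 stood beside miR-552-3p in exosomes but not in cells, where it was already an abundant name. In exosomes Ang it had 146272, 134456 and 141112 CPM, against 84313, 83199 and 85110 CPM in exosomes Con. In cells Ang it had 8876, 8213 and 8324 CPM, against 7870, 8467 and 8134 CPM in cells Con. It ranked 14 to 18 in cells Ang and 15 to 17 in cells Con. The order of the groups was the same as for miR-552-3p, except that the cell groups overlapped and did not differ beyond their spread.

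hsa-miR-552-5p did not lead exosomes, so the description of the 3 as leading exosome names does not hold for it. In exosomes Ang it had 1, 3 and 0 counts, against 1, 1 and 0 counts in exosomes Con. Every exosome library was at or under the floor. A count of 0 allows up to 2.93 CPM in exosomes Ang replicate 3 and 3.09 CPM in exosomes Con replicate 3. In cells Ang it had 48.9, 26.6 and 48.7 CPM (24, 11 and 25 counts), against 39.7, 42.6 and 35.4 CPM (21, 22 and 15 counts) in cells Con. The cell groups overlapped, and the lowest value was that of cells Ang replicate 2, the library that stood apart.

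**Figure D1:**
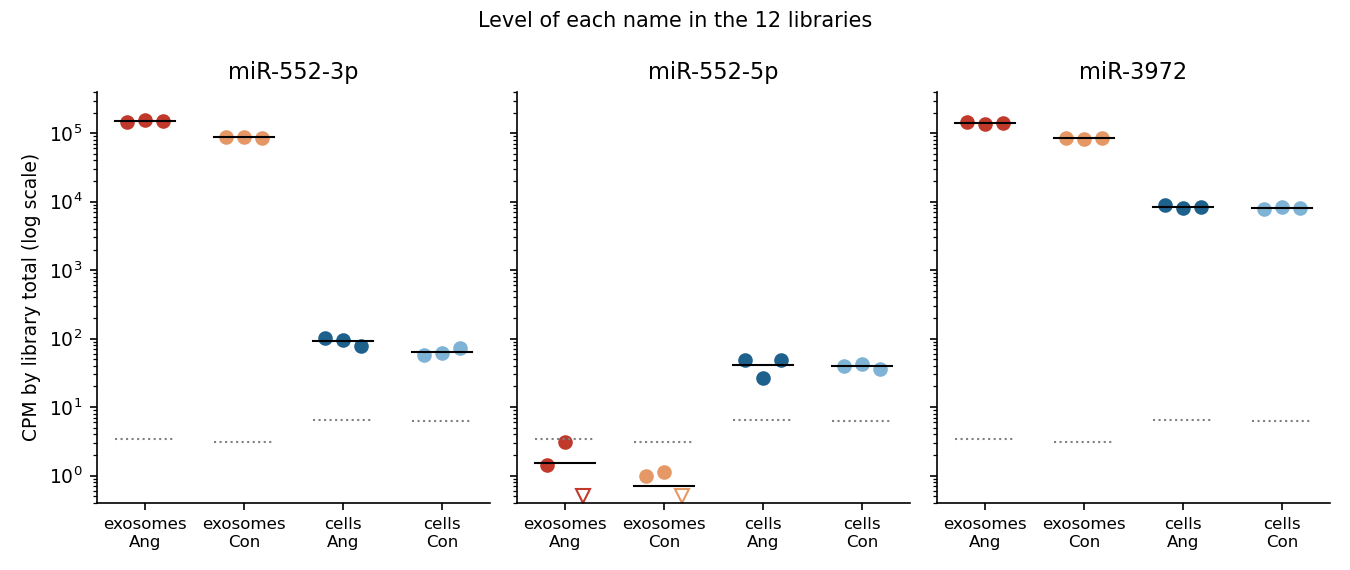
Level of miR-552-3p, miR-552-5p and miR-3972 in CPM (log axis) in each library of exosomes Ang, exosomes Con, cells Ang and cells Con. Points are libraries, solid lines group means, dotted lines the mean floor of 3 counts in the group, and open triangles at the bottom libraries with 0 counts; miR-552-3p and miR-3972 stand at 83199 CPM or more in all exosome libraries, where miR-552-5p has at most 3 counts.

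The arms of MIR552 went opposite ways between the compartments. In CPM by library totals, miR-552-3p was 1632-fold higher in exosomes Ang than in cells Ang, and 1367-fold higher in exosomes Con than in cells Con. miR-3972 was 16.6-fold higher in exosomes Ang than in cells Ang, and 10.3-fold higher in exosomes Con than in cells Con. miR-552-5p had 4 counts summed over exosomes Ang against 60 in cells Ang, a CPM 28.3-fold lower in exosomes (95% counting interval 10.5 to 107). It had 2 counts in exosomes Con against 58 in cells Con, 57.1-fold lower (15.1 to 482). Groups without overlap and higher in exosomes made up 18.6% of tested names in Ang and 21.0% in Con, and those lower in exosomes 72.4% and 68.1%. Since the names were picked on this contrast, nothing is read from that.

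On TMM scaling, which sets the bulk of the names level between libraries, the log2 difference of exosomes over cells was 12.56 (SE 0.183) in Ang and 11.94 (SE 0.091) in Con for miR-552-3p, the highest of all tested names in both. Each SE of an edgeR fit is the log2 value divided by the square root of its F statistic. It can fall below counting error, as it did here for miR-552-3p in Con, with 30 to 32 counts a library in cells. For miR-3972 it was 5.94 (SE 0.132) in Ang and 4.88 (SE 0.050) in Con, in place 19 of 1627 and 46 of 1710. With library totals in place of TMM these 4 values were 10.67, 10.42, 4.05 and 3.37, and the median of all names was -2.19 in place of -0.31 in Ang and -1.78 in place of -0.27 in Con. Relative to the median of all tested names, the pair stood 12.87 and 6.26 higher in exosomes Ang, and 12.20 and 5.15 higher in exosomes Con, on TMM scaling. miR-552-5p was lower in exosomes by less on TMM scaling than by library totals. Its log2 difference was -2.86 (SE 0.589) in Ang and -4.12 (SE 0.491) in Con, that is 7.26-fold and 17.4-fold lower. That was place 1413 of 1627 and 1616 of 1710, from exosome counts at or under the floor.

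Within MIR552, exosome libraries thus held almost nothing but the 3p strand. In exosomes Ang the 3p to 5p counts were 404308 to 4, a ratio of 101077 (95% exact counting interval 39477 to 370972). In exosomes Con they were 252642 to 2, a ratio of 126321 (34969 to 1043079). Both intervals cover counting error only. In cells the 3p strand led by far less. The ratio was 2.08, 3.64 and 1.60 in the 3 libraries of cells Ang, and 1.43, 1.45 and 2.07 in those of cells Con. The groups overlapped, with a mean log2 ratio of 1.20 ± 0.60 in cells Ang and 0.70 ± 0.30 in cells Con (SD, n = 3 each; exact two-sided permutation p = 0.2, 0.3 after Benjamini-Hochberg adjustment over the 3 ratio comparisons made). The smallest p that 3 against 3 allows is 0.1. No test of the ratio was made in exosomes, where the 5p strand was at or under the floor.

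The arm balance was set beside that of other hairpins, a comparison chosen after these values were seen. Of 227 hairpin names with both arms listed and at least 1000 UMIs in the exosome libraries, 1 had a smaller minor-arm share than the 0.00091% of MIR552, and the median share was 2.96%. Among 491 hairpin names with at least 100 UMIs in each compartment, the log2 ratio of the arms, with 1 count added, differed between exosomes and cells by 15.6 for MIR552. The next was miR-6785 at 10.7, and the median was 1.77. The counts of the leading arm cap both measures, so the place of MIR552 follows in part from the level that chose it and is a description only. The leading arm was the same in both compartments for 399 of the 491, MIR552 included.

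Ang against Con was tested in exosomes, a contrast that the choice of names by level did not use but whose outcome was known when they were chosen. Both names that could be tested rose. miR-552-3p averaged 150509 ± 5207 CPM in exosomes Ang and 87432 ± 2439 CPM in exosomes Con (SD, n = 3 each). On TMM scaling, where the change is larger than in these CPM, it was 1.93-fold higher (log2 0.95, SE 0.061, edgeR quasi-likelihood test, Benjamini-Hochberg adjusted p = 2.54e-06). miR-3972 averaged 140613 ± 5924 CPM in exosomes Ang and 84208 ± 960 CPM in exosomes Con. On TMM scaling it was 1.87-fold higher (log2 0.91, SE 0.061, edgeR adjusted p = 3.12e-06), again more than in CPM. All 3 Ang libraries lay above all 3 Con libraries for each of them. Of all 1199 tested names, 34.0% passed in either direction and 16.9% passed as higher, and 16.1% were higher without overlap in CPM. The names that passed were 203 higher and 205 lower, and 151 higher and 319 lower with library totals in place of TMM. miR-552-5p was too low in exosomes to pass the count filter.

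The rises of the pair were not the steepest in exosomes, but they were the steepest among its most abundant names. Of the 1199 names, 27 had a higher log2 change than miR-552-3p and 34 a higher one than miR-3972. Of 16 names with a mean of at least 10000 CPM in exosomes, a limit set after the values were seen, 5 rose, the pair included, and 7 fell. The pair had the 2 highest log2 changes of these, and the next stood at 0.65. The 3 names that followed the pair in exosome level fell. miR-3944-5p averaged 35292 ± 1584 CPM in exosomes Ang and 51376 ± 2066 CPM in exosomes Con. Its log2 change on TMM scaling was -0.38 (edgeR adjusted p = 0.00237), a smaller fall than in CPM. miR-671-3p changed by -0.42 and miR-5008-3p by -0.36 on the log2 scale, also with TMM. The lesser name of the pair stood 3.93 to 4.02 times as high as miR-3944-5p, the third name, in exosomes Ang libraries and 1.57 to 1.70 times in exosomes Con libraries.

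**Figure D2:**
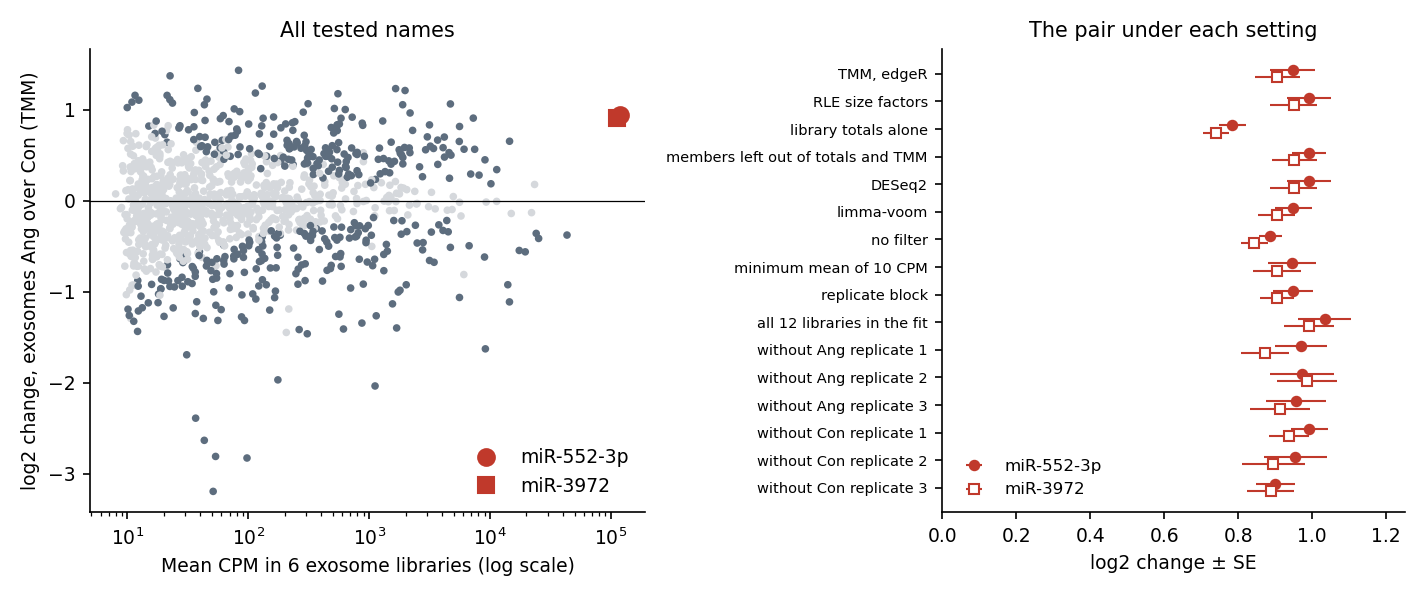
Left, log2 change in exosomes, Ang over Con with TMM scaling, against the mean CPM of the 6 exosome libraries (log axis), for 1199 tested names, dark where the adjusted p was under 0.05. Right, the log2 change ± SE of miR-552-3p (filled) and miR-3972 (open) under each setting; all values lie between 0.74 and 1.03.

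Together the pair held 29.15%, 29.01% and 29.17% of the UMIs in the exosomes Ang libraries, against 17.33%, 17.19% and 16.97% in the exosomes Con libraries. The mean was 29.1% ± 0.088 in exosomes Ang and 17.2% ± 0.18 in exosomes Con (SD, n = 3 each). The widest Wilson 95% interval was that of exosomes Ang replicate 1, 29.04% to 29.26%, so counting error was small beside the difference between the groups. In cells the pair held 0.83% to 0.90% in Ang and 0.79% to 0.85% in Con. All other names were left with 70.9% of the UMIs in exosomes Ang and 82.8% in exosomes Con, a log2 difference of -0.22 in their summed share. More molecules of the pair and fewer molecules of all else cannot be told apart from such shares.

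The size of the rise depended on the scaling, its direction did not. With library totals the log2 change was 0.78 for miR-552-3p and 0.74 for miR-3972, and the median of all names was -0.22 in place of -0.05. With the 3 names left out of the totals and of the TMM estimate, the changes were 0.99 and 0.95 and the median -0.01. Relative to that median, miR-552-3p was 1.0 higher and miR-3972 0.96 higher on each of these scales. A change of scaling moves all names by nearly the same amount, so this sameness is arithmetic and no further support for the rise. The sum of the muscle markers was lower in exosomes Ang without overlap, as 36.3% of tested names were. It was mostly hsa-miR-208a-3p, whose own change did not pass (log2 -0.085 on TMM scaling, edgeR adjusted p = 0.721). Blood cell markers (6 of 6 listed, among them the red cell miRNA miR-451a) summed to 346 to 636 CPM in exosomes Ang. In exosomes Con they summed to 551, 1190 and 1270 CPM in replicates 1, 2 and 3. The liver miRNA miR-122-5p had 4.30 to 18.8 CPM in exosomes Ang, and 8.74, 123 and 156 CPM in exosomes Con replicates 1, 2 and 3. The 2 endothelial names summed to 84.6 to 233 CPM in exosomes Ang, and to 130, 434 and 473 CPM in exosomes Con replicates 1, 2 and 3. For these 3 lists, exosomes Con replicates 2 and 3 were thus the highest exosome libraries. The 3 intestinal names summed to 15.6 to 21.9 CPM in exosomes Ang and 12.6 to 27.0 CPM in exosomes Con. The part of these lists in the rise was not tested. Exosomes Con replicate 1 did not stand apart for the pair, and without it the changes were 0.99 and 0.94.

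**Figure D3:**
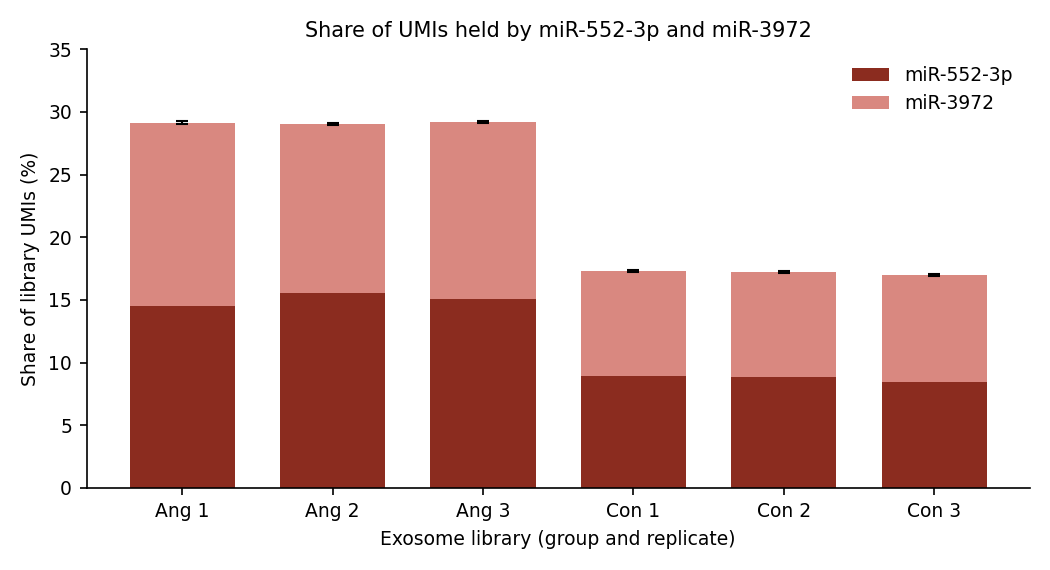
Share of library UMIs, in percent, held by miR-552-3p (dark) and miR-3972 (light) in each exosome library, Ang then Con, with the Wilson 95% interval of the joint share as error bars. The 3 Ang libraries reach 29.01% to 29.17% and the 3 Con libraries 16.97% to 17.33%.

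The pair kept nearly the same ratio to each other in exosomes. miR-552-3p stood at 0.99, 1.16 and 1.07 times the count of miR-3972 in exosomes Ang, against 1.06, 1.07 and 0.99 times in exosomes Con. The mean log2 ratio was 0.10 ± 0.11 in exosomes Ang and 0.05 ± 0.05 in exosomes Con (SD, n = 3 each; exact two-sided permutation p = 0.5, adjusted p = 0.5). The groups overlapped, and the difference of 0.04 lay within their spread and was -0.012 without exosomes Ang replicate 2. Which of the pair came first changed between libraries, as miR-552-3p led in 4 of the 6 and miR-3972 in the others. In cells miR-552-3p had 0.0115, 0.0118 and 0.0094 times the count of miR-3972 in Ang, against 0.0072, 0.0073 and 0.0090 times in Con. There the mean log2 ratio was -6.53 ± 0.18 in cells Ang and -7.00 ± 0.18 in cells Con, without overlap (exact two-sided permutation p = 0.1, the smallest possible, adjusted p = 0.3).

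In the cells none of the 3 names passed for Ang against Con. With edgeR 0 of 3 passed after adjustment, against 6.56% of 1630 tested names in either direction and 2.76% higher, and 1 of 3 had an unadjusted p under 0.05; DESeq2 and limma-voom also called 0. miR-552-3p averaged 92.2 ± 12.6 CPM in cells Ang and 63.9 ± 8.36 CPM in cells Con (SD, n = 3 each; log2 0.52, SE 0.182, edgeR unadjusted p = 0.0118, adjusted p = 0.112). That SE lay below the counting error of its cell counts. The cell groups of miR-552-3p did not overlap, as was so, in the same direction, for 12.5% of tested names, and in the other direction for 9.94%. miR-552-5p averaged 41.4 ± 12.8 CPM in cells Ang and 39.2 ± 3.65 CPM in cells Con (log2 0.08, SE 0.265, edgeR adjusted p = 0.921). miR-3972 averaged 8471 ± 355 CPM in cells Ang and 8157 ± 299 CPM in cells Con (log2 0.04, SE 0.058, edgeR adjusted p = 0.782). Blood cell markers summed to 2028, 6800 and 2164 CPM in cells Ang, against 2122 to 2364 CPM in cells Con, the highest in Ang replicate 2. The same library held the highest endothelial sum, 4665 CPM, against 517 to 524 CPM in the other cells Ang libraries and 575 to 674 CPM in cells Con. Its miR-122-5p was 181 CPM, against 7.80 to 8.15 CPM in the other cells Ang libraries and at most 9.69 CPM in cells Con. The part of these lists in the cell values was not tested. Without cells Ang replicate 2 the log2 changes were 0.48, 0.28 and 0.06.

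The Ang change in exosomes was then set against that in cells, in a fit to all 12 libraries. The change of miR-3972 was larger in exosomes by 1.004 on the log2 scale (SE 0.094, edgeR adjusted p = 1.35e-06), with the groups apart in exosomes and overlapping in cells. That of miR-552-3p was larger by 0.57 (SE 0.159, edgeR adjusted p = 0.0312). Of 1835 tested names, 15.1% passed in either direction and 9.97% passed as larger in exosomes. Those were 183 with the exosome change above the cell change and 95 below, and 93 above and 221 below with library totals. The result for miR-552-3p rests on 30 to 50 counts a library in cells, and its SE lay below the counting error of those counts. Its call ended with library totals (log2 0.25, adjusted p = 0.427), with limma-voom (0.58, adjusted p = 0.0652) and when any of 5 libraries was left out: exosomes Ang replicate 2 (0.53), exosomes Con replicate 2 (0.54), cells Ang replicate 3 (0.44), cells Con replicate 2 (0.61) or cells Con replicate 3 (0.48). Over all its alternatives the adjusted p ran between 0.0107 and 0.427. miR-552-5p did not pass, and no value is given for it since its exosome counts were at or under the floor.

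miR-1202, which shares the seed of miR-3972 and lies on chromosome 6, did not follow it. It had 26, 23 and 40 counts in exosomes Ang, against 67, 57 and 73 counts in exosomes Con, and averaged 33.5 ± 8.24 CPM in exosomes Ang and 68.1 ± 6.11 CPM in exosomes Con. Its groups did not overlap and it was lower in exosomes Ang, as was so for 36.3% of tested names. In cells it averaged 30.8 ± 8.13 CPM in Ang and 31.0 ± 7.30 CPM in Con (SD, n = 3 each). Among the 2367 names with a sequence, none shares a seed with either miR-552 arm.

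The names most like each of the 3 were found by the root mean square difference between log2(CPM + 1) profiles over the 12 libraries, each centred on its own mean, among 1819 other names with a mean of at least 10 CPM. For miR-3972 these were miR-4694-3p (0.14), miR-5007-3p (0.19), miR-3620-3p (0.22), miR-1296-5p (0.24) and miR-4516 (0.24), where the median over all names was 2.83. miR-4694-3p stood closest, at 6120 ± 458 CPM in exosomes Ang and 3280 ± 176 CPM in exosomes Con, and at 418 ± 11.0 CPM in cells Ang and 336 ± 8.96 CPM in cells Con. The measure covers the gap between compartments as well as the Ang change, and the rest rose less in exosomes than miR-3972. Mean CPM in exosomes Ang and Con was 1390 and 1043 for miR-5007-3p, and 570 and 420 for miR-3620-3p. It was 2102 and 1696 for miR-1296-5p, and 8439 and 7789 for miR-4516. For miR-552-3p the closest were miR-5008-3p (1.71), miR-6785-3p (1.92), miR-4638-3p (2.11), miR-671-3p (2.50) and miR-6126 (2.74), where the median over all names was 6.21. miR-5008-3p had 19773 ± 650 CPM in exosomes Ang and 28405 ± 1043 CPM in exosomes Con, so that it was lower in Ang where miR-552-3p was higher. The other names near miR-552-3p were mixed. Mean CPM in exosomes Ang and Con was 20237 and 30240 for miR-671-3p, and nearly level at 23471 and 23256 for miR-6785-3p. It was higher in Ang for miR-4638-3p, at 3997 and 3396, and for miR-6126, at 3329 and 2532. For miR-552-5p the closest names were miR-6856-3p (0.41), miR-30b-5p (0.44), miR-3686 (0.46), miR-7977 (0.46) and miR-7705 (0.47), against a median of 1.52. All 5 were lower in exosomes than in cells.

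The closest name to each of the 2 exosome leaders is shown because neither shares a seed with its partner:
hsa-miR-4694-3p: cAAAUGGAcaggauaacaccu
hsa-miR-5008-3p: cCUGUGCUcccagggccucgc

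**Figure D4:**
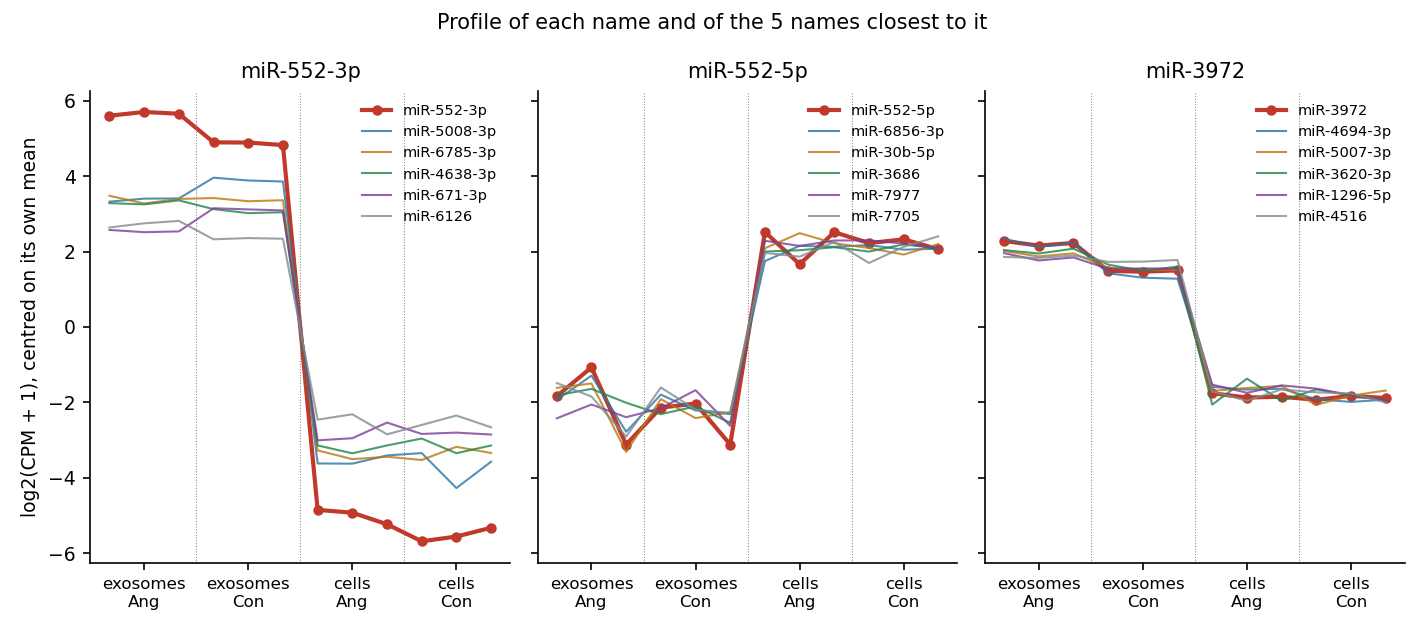
log2(CPM + 1), centred on its own mean over the 12 libraries, for miR-552-3p, miR-552-5p and miR-3972 (thick red lines with points) and the 5 names closest to each (thin lines), with the 3 libraries of each group side by side. The lines of miR-3972 and its 5 names lie close, with root mean square differences of 0.14 to 0.24, though most differ less between exosomes Ang and exosomes Con. miR-552-3p lies outside its 5 in both compartments.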

How the data were processed

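Small RNA of AC16 cells and of exosomes was measured in 12 libraries made with the QIAseq miRNA kit, per the labels' protocols. The authors deposited raw UMI counts, one file a library, with mature miRNA names in rows. The submitters' processing notes name cutadapt and build GRCh38. The aligner, the annotation and the counter are unnamed in the sources used here. Exosome files list 2580 of the 2656 names, and the 76 others were taken as 0 there.

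Each comparison was fitted to all names with edgeR 4.0.16 in R 4.3.3 (filterByExpr, TMM, quasi-likelihood test, two-sided, Benjamini-Hochberg adjusted p threshold 0.05) on its 6 libraries, or on all 12 for the difference in Ang change between compartments. The Ang against Con fits and that difference were also run on simulated data, and the fits of exosomes over cells were not. DESeq2 1.42.0 and limma 3.58.1 (voom), other scalings and filters, a replicate block and leaving out each library were alternatives. Ratios within a library were compared by exact permutation with scipy 1.17.1. Sequences came from RefSeq, which matched 2367 names including the 3, positions from GENCODE 29, folds from ViennaRNA 2.7.2. Replicate pairs differed by more than sampling noise, the chi-square of counts being 1.34 or more per degree of freedom. The names and lists were chosen with earlier results of these data known. Named besides the 3 are names sharing a seed, the 3 next in exosome level, the 5 closest in profile and the closest in sequence; names given for arm balance were chosen after their values were seen.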

Additional observations from a re-analysis of the deposited data

Results flagged for a closer look

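The Ang change of miR-3972 differed between the compartments by a test of the difference itself: it was larger in exosomes by 1.004 on the log2 scale (edgeR adjusted p = 1.35e-06). In exosomes all 3 Ang libraries lay above all 3 Con libraries, as was so for 16.1% of tested names, whereas in cells the groups overlapped.

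The Ang change of miR-552-3p was also larger in exosomes, by 0.57 (edgeR adjusted p = 0.0312), but it passed under 13 of 20 alternatives only. It was 0.25 with library totals (adjusted p = 0.427, within a range of 0.0107 to 0.427 over the alternatives), and the call also ended with limma-voom and with any of 5 libraries left out. In cells its own change did not pass (edgeR adjusted p = 0.112), and the values rest on 30 to 50 counts a library.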

How the results depend on the processing

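The rises of miR-552-3p and miR-3972 in exosomes kept their direction and passed under all 15 alternatives each, with log2 changes of 0.78 to 1.03 and 0.74 to 0.99. Leaving out each library gave 0.90 to 0.99 and 0.87 to 0.98, and counts of names past the threshold of 312 to 422 against 408. The larger change of miR-3972 in exosomes than in cells passed under all 20 alternatives (0.69 to 1.11). That of miR-552-3p passed under 13 of 20: it was 0.25 with library totals and 0.58 with limma-voom, and 0.44 to 0.69 with a library left out. In cells, where none of the 3 names passed, miR-552-5p ranged from -0.047 to 0.28 with a library left out, and miR-3972 was -0.013 with all 12 libraries in the fit. The number of names past the threshold in cells was 107, and 38 to 97 with a library left out, lowest without Con replicate 2 or 3 and 70 without Ang replicate 1. The difference in the log2 ratio of miR-552-3p to miR-3972 in exosomes, 0.04 for Ang minus Con, ranged from -0.012 to 0.099 with a library left out and was below 0 without exosomes Ang replicate 2. For exosomes over cells, library totals gave 10.42 (Con) and 10.67 (Ang) for miR-552-3p and 3.37 and 4.05 for miR-3972, and leaving out a library gave miR-3972 in Con 4.80 to 4.95. The scaling median moved with them; the cause of the other moves was not tested.

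Replicate numbers gave no clear sign of pairing: same-numbered Ang and Con libraries had deviations correlated at 0.23, 0.28 and -0.15 in exosomes and at -0.005, 0.03 and 0.006 in cells. Between different numbers the correlations ran from -0.44 to 0.28 in exosomes. With 3 libraries a group, these values cannot say whether the libraries were paired. With a replicate block the changes in exosomes were 0.95 and 0.90, with 398 names passing, and 132 passed in cells; the block changed no call of the 3 names. In the ratio of the MIR552 arms, 1 count added gave 0.48 against 0.50 in cells, and no value was computed in exosomes. Counts limit miR-552-5p in exosomes and miR-552-3p in cells.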
